A study of Drosophila melanogaster with 3 samples.

Results

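The Polycomb genes described here are those for the subunits of Polycomb repressive complex 1 (PRC1), its partner Scm and the Pho repressive complex (PhoRC): *ph-p*, *ph-d*, *Psc*, *Su(z)2*, *Pc*, *Sce*, *Scm*, *Sfmbt*, *pho* and *phol*. They were taken by symbol from the Ensembl annotation and make 10 of 13945 protein-coding genes on the chromosomes that carry peaks. For each gene, regions that overlapped the gene or the 10 kb on either side were read from lists of candidate regions for CG12104 binding. Binding had been mapped by chromatin immunoprecipitation and sequencing (ChIP-seq) of a *Drosophila melanogaster* line that stably carries CG12104 fused at its C-terminus to GFP, a fluorescent protein used here as the handle for an anti-GFP antibody. CG12104 is a protein with a high mobility group (HMG) box, a domain that binds DNA. The chromatin came from whole embryos of mixed sex, 0 to 24 h after laying, so each list averages over all embryonic tissues and stages. All 3 biological replicates belonged to this 1 group, and lists from untagged embryos were not analysed here, so values are compared between genes, regions and replicates and not between conditions. Each replicate list held 30000 regions, the pooled list 26959, and the set that passed the authors' irreproducible discovery rate (IDR) step 4060. The highest q value was 0.915, 0.959 and 0.815 in replicates 1, 2 and 3. It was 0.960 in the pooled list and 0.0152 in the IDR set, so the replicate and pooled lists also hold background.

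Polycomb group proteins keep developmental genes, the Hox genes among them, silent in cells where they should not be expressed. In flies the PhoRC subunits Pho and Phol bind DNA at Polycomb response elements, and PRC1 recognises methylated histone tails, ubiquitinates a histone and compacts chromatin. Several of these genes are in turn bound by Polycomb proteins, and *ph-p* and *ph-d* form a tandem pair on the X chromosome that is a known Polycomb target.

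The sequences below are those at the strongest summits of *ph-p*, *ph-d* and *phol*, at the summit nearest to a *Sfmbt* start site and at a weaker intronic *ph-p* summit that holds a Sox word, in the Release 6 assembly (dm6) and on the strand of the named gene. Capitals mark AACAAT or its reverse complement, a word that HMG proteins of the Sox type bind, and TATCGATA, the DNA replication-related element. The *ph-p* windows are at chrX:2137194-2137394 (intron, the strongest summit of all 10 genes in the IDR set) and chrX:2135229-2135429 (intron). The others are at chrX:2123983-2124183 (*ph-d*, between genes), chr2L:13176813-13177013 (*Sfmbt* promoter) and chr3L:9457714-9457914 (upstream of *phol*). All are on the minus strand.
ph-p summit, IDR rank 18: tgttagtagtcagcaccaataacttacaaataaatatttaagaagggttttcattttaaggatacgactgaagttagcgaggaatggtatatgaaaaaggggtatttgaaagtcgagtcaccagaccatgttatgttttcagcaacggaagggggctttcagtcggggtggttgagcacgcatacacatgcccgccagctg
ph-p intron summit, IDR rank 741: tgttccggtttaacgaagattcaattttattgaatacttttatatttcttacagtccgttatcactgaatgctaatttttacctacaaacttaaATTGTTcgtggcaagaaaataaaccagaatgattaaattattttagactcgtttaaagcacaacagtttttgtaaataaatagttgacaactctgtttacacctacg
ph-d upstream summit, IDR rank 120: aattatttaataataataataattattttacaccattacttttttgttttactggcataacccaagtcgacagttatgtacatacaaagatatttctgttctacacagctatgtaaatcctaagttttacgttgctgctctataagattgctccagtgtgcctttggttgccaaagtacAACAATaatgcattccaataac
Sfmbt promoter summit, IDR rank 1265: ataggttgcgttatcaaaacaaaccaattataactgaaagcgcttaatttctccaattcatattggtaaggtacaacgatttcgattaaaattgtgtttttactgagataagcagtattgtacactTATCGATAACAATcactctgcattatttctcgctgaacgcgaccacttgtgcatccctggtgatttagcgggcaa
phol upstream summit, IDR rank 164: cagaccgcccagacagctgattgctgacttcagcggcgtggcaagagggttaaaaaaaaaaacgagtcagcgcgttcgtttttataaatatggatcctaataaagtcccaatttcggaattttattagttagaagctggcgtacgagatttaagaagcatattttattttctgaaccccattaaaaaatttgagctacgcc
The last sequence is the stretch upstream of *ph-d* (chrX:2124246-2124413, minus strand, between genes) that aligned with the *ph-p* promoter region. Capitals here mark the bases that are identical in *ph-p*.
ph-d stretch shared with ph-p: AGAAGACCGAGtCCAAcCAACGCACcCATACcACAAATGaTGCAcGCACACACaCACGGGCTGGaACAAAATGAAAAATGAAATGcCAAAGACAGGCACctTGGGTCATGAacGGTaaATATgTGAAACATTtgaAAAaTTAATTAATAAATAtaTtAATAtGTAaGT

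*ph-p* (FBgn0004861, X 2126210 to 2138371, minus strand) encodes one of the Polyhomeotic proteins, PRC1 subunits that polymerise through a SAM domain. In the IDR set it held the strongest region of the 10 genes and the most regions, 7, of which 2 lay nearer to *ph-d*. In replicate 1 the region at *Pc* ranked higher, at 15. The highest *ph-p* region, X 2137181 to 2137537, had its summit in an intron at -439 bp from the nearest *ph-p* transcription start site (TSS). Its signal, a value per region on the scale of its own list, was 350.1, 592 and 282 in replicates 1, 2 and 3 and 1120.4 in the IDR set. It ranked 30, 11 and 14 by signal in replicates 1, 2 and 3 and 18 in the IDR set. The 3 replicates therefore all placed it among their 50 highest regions.

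A second region of similar strength lay 386 bp wide at X 2137700 to 2138085, with its summit at +401 bp, in the 5′ UTR of the outermost *ph-p* transcript. It had signals of 342, 494 and 183 in replicates 1, 2 and 3, with ranks of 35, 19 and 50, and an IDR rank of 32. Farther inside the gene, an intronic region at +1293 bp ranked 741 in the IDR set and 755, 718 and 869 in replicates 1, 2 and 3. A weaker intronic region at +2188 bp had IDR rank 3131, and it ranked 10291 in replicate 1 against 2067 and 2926 in replicates 2 and 3. Upstream of the gene, a region of rank 2110 lay at the promoter of *D2hgdh*, a dehydrogenase gene of hydroxyglutarate metabolism. Binding at *ph-p* thus comprised a strong pair within 500 bp of start sites, which the replicates ranked alike, and weaker intronic regions. The replicates did not rank the last of these alike.

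*ph-d* (FBgn0004860, X 2115727 to 2123286, minus strand), the distal copy of the pair, had its IDR regions upstream of the gene. Neither had its summit within 500 bp of a start site. The stronger of its 2 IDR regions, X 2123940 to 2124231, had its summit at -797 bp and ranked 120, with ranks of 107, 111 and 175 in replicates 1, 2 and 3. Its signals in these replicates were 239.5, 278 and 117, each below the *ph-p* summit in the same replicate. The second region, X 2124179 to 2124338 with its summit at -1022 bp, ranked 1136 in the IDR set. Its nearest-summit match ranked 29044 in replicate 1, against 875 and 2157 in replicates 2 and 3, and in 2 of the 3 replicates another overlapping region stood higher. The 2 regions overlap, and single replicates did not divide them alike.

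The 301 bp around the *ph-d* summit of rank 1136 and around the *ph-p* summit of rank 32 aligned over 178 columns with 143 identical, or 80.3%, and a longest exact run of 20 bp. The alignment score was 179, against at most 41 for either *ph-d* summit with any other summit at the 10 genes. Both summits lay inside the aligned stretch. The strongest summits of the genes lay outside it, by 643 bp at *ph-p* and by 163 bp at *ph-d*, and the rank 120 and rank 18 windows aligned with a score of 23. With 1001 bp windows the alignment lengthened to 389 columns at 80.2% identity. The longest exact run was then 21 bp, so longer reads from the aligned stretch would differ between the copies. No source used here says how the authors treated reads that map to both copies. Their part in the split of signal between the rank 32 and rank 1136 summits was not tested.

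**Figure D1:**
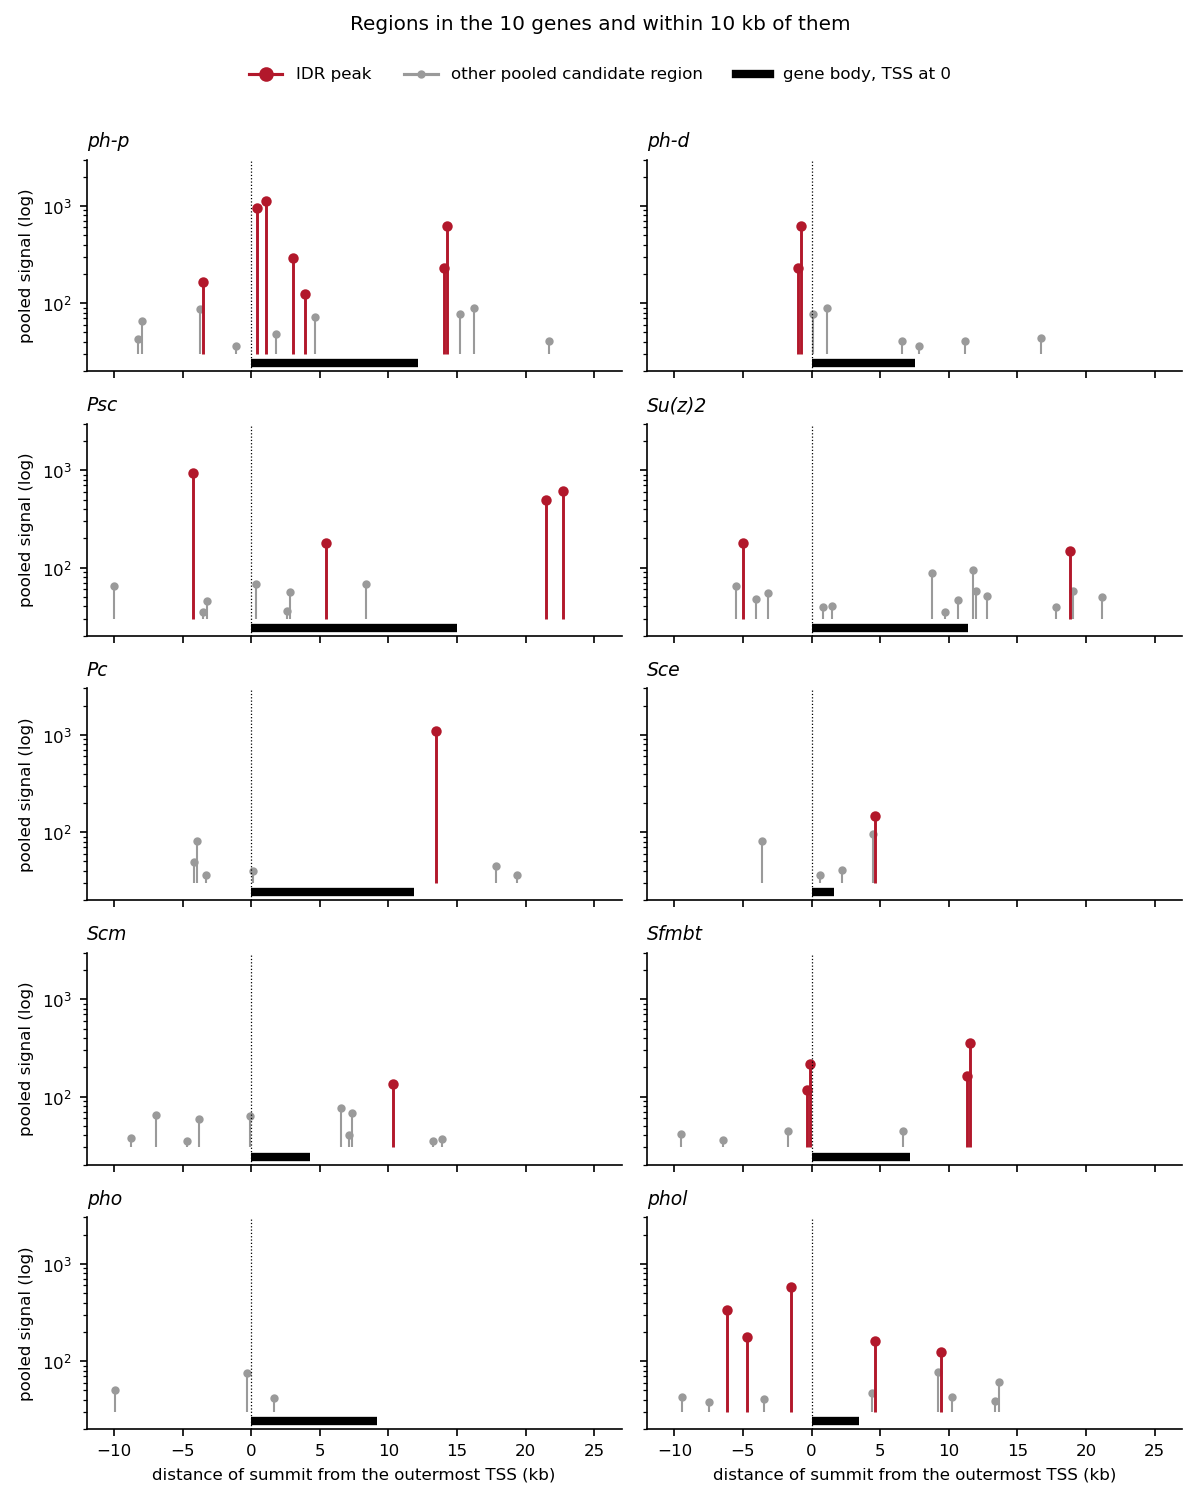
Each panel shows 1 gene, with the distance of each summit from the outermost TSS on the x axis (kb, positive into the gene) and the signal in the pooled list on a log y axis. Red marks are IDR peaks, grey marks are other pooled candidate regions and the black bar is the gene body. *ph-p* has 2 of its regions near 1000 in signal at its 5′ end, *Pc* has its only peak beyond its 3′ end, and *pho* has grey marks only.

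*Psc* (FBgn0005624, 2R 12965997 to 12980994, minus strand) and *Su(z)2* (FBgn0265623, 2R 12996501 to 13007911, plus strand) are divergent paralogs for RING-finger proteins that partner Sce in PRC1. The strongest region between them, 2R 12985064 to 12985356, had its summit 4215 bp upstream of the nearest *Psc* TSS. It ranked 33, 39 and 38 in replicates 1, 2 and 3 and 37 in the IDR set, and its signals were 343, 393 and 195 in these replicates. This was the most even of the 4 highest regions by rank. At *Su(z)2* the strongest IDR region lay at -4964 bp, ranked 1783 and had signals of 112, 72.2 and 20.7 in replicates 1, 2 and 3, with ranks of 739, 1877 and 4269. It fell outside the 4060 highest regions of replicate 3.

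*Psc* had a further intronic region at +5094 bp with IDR rank 1828, and 2 strong regions beyond its 3′ end, with gaps of 7511 and 6459 bp to the gene. Those beyond the 3′ end ranked 129 and 238, and their nearest start site was that of CG13321. The remaining *Su(z)2* region lay 7197 bp beyond its 3′ end and ranked 2469, although the *Su(z)2* start site, 18210 bp away, was the nearest of any protein-coding gene. Neither paralog had an IDR summit within 500 bp of its own start sites. In the single-replicate lists a *Psc* promoter region was listed in replicates 2 and 3, with signals of 20.5 and 22.5, and a *Su(z)2* promoter region in replicate 3 only, with a signal of 22.2.

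*Pc* (FBgn0003042, 3L 21306138 to 21318020, minus strand) encodes Polycomb, the chromodomain subunit that reads histone methylation. It had 1 IDR region, at 3L 21304423 to 21304724, with signals of 411, 453 and 226 in replicates 1, 2 and 3 and ranks of 15, 28 and 27. The IDR rank was 19, next to the *ph-p* summit. This region lay 1414 bp beyond the 3′ end of *Pc* and 13457 bp from its start site. Its summit was 95 bp from a TSS of CG11309 and within 500 bp of a TSS of CG7632 as well. At the *Pc* start site only replicate 1 listed a region, with a signal of 16.9 and rank 29227, near the end of its list.

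*Sce* (FBgn0003330), the RING-finger ubiquitin ligase of PRC1, and *Scm* (FBgn0003334), a SAM-domain protein that links the Polycomb complexes, each had 1 IDR region, and both lay at the promoters of neighbours. The *Sce* region, rank 2527, had its summit at -147 bp from *Hsdl2* and 4654 bp from the *Sce* TSS, with signals of 66.4, 49.2 and 26.8 in replicates 1, 2 and 3. The *Scm* region, rank 2829, had its summit at the promoters of CG8319 and CG9427, 10339 bp from the *Scm* TSS, with signals of 59.3, 32.4 and 32.3. All 3 replicates kept the *Sce* region among their 4060 highest, while replicate 2 ranked the *Scm* region 6073. At its own start site *Scm* had a candidate region in every replicate, with signals of 31.5, 15.3 and 17.6 and ranks of 8175, 27115 and 5483.

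*Sfmbt* (FBgn0032475, 2L 13169649 to 13176785, minus strand), the PhoRC subunit with MBT repeats that bind methylated histones, was with *ph-p* the only gene of the 10 with an IDR summit within 500 bp of its own start site. Its promoter region, 2L 13176688 to 13177137, had its summit at -128 bp and signals of 104, 87.2 and 35.3 in replicates 1, 2 and 3. It ranked 877, 1387 and 1878 in these replicates and 1265 in the IDR set, and start sites of CG5439 and CG43925 lay within 500 bp of the summit too. A weaker IDR region, rank 3447, lay at -330 bp and overlapped it, and in replicates 2 and 3 1 region matched both. At the other end of the gene, 2 overlapping regions at the promoters of *DnaJ-H*, a gene of the DnaJ chaperone family, and *Sirt1*, a deacetylase gene, ranked 481 and 2094. The strongest region of the *Sfmbt* neighbourhood was therefore not the one at its own promoter.

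*phol* (FBgn0035997, 3L 9452803 to 9456281, minus strand), which encodes a DNA-binding paralog of Pho, had 5 IDR regions, all at promoters of neighbouring genes. The strongest, 3L 9457707 to 9457900, lay 1533 bp upstream of the *phol* TSS at start sites of CG3552 and CG3437. It had signals of 170.4, 276 and 123 in replicates 1, 2 and 3, ranks of 283, 115 and 150, and an IDR rank of 164. The other regions ranked 574 (CG44838), 1833 (CG44838 and CG3434), 2205 (CG3448 and *ghi*) and 3168 (CG3529). Within 500 bp of the *phol* TSS replicates 1 and 3 listed weak regions, with signals of 21.2 and 13.9 and ranks of 18379 and 7854, and replicate 2 listed none.

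*pho* (FBgn0002521, chromosome 4, 1172469 to 1181628, minus strand), which encodes the main DNA-binding subunit of PhoRC, was the gene with no IDR region within 10 kb. The nearest IDR summit lay 37308 bp from its TSS. A candidate region at -299 bp, from 1181702 to 1182151, had a signal of 75.1 and rank 6666 in the pooled list. The matching promoter regions had signals of 43.0 and 23.6 and ranks of 4576 and 10800 in replicates 1 and 2, and replicate 3 listed none within 500 bp. On chromosome 4, where *pho* lies, 24 of 80 protein-coding genes had an IDR region in the gene or within 10 kb, or 30%.

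**Figure D2:**
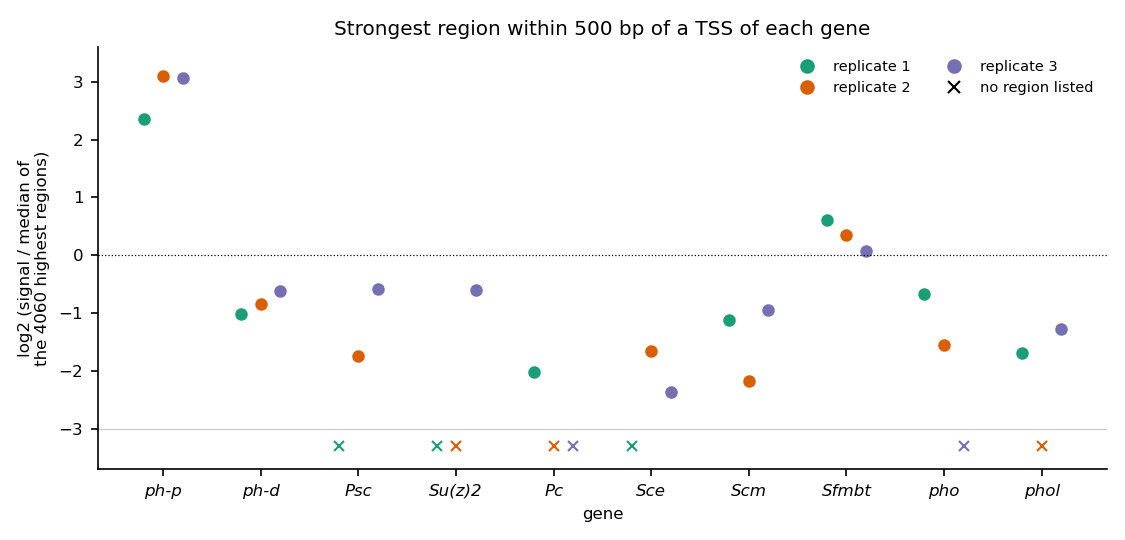
For each gene the strongest region with a summit within 500 bp of a TSS is plotted per replicate, as log2 of its signal over the median signal of the 4060 highest regions of the same replicate list. Crosses mark replicates that listed no such region; *ph-p* and *Sfmbt* are the genes above 0 in all 3 replicates.

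The paralogous pairs were compared within each replicate, since signal is not scaled between lists. Within 500 bp of a start site, *ph-p* had signals of 350.1, 592 and 282 and *ph-d* had 34.0, 38.3 and 21.9 in replicates 1, 2 and 3. The *ph-d* regions were candidates outside the IDR set, with ranks of 7055, 4734 and 3936 in these replicates. Their summits lay at -216, -370 and +94 bp, so the *ph-d* values are not those of 1 region. The log2 ratio of *ph-p* over *ph-d* was 3.67 ± 0.29 (SD, n = 3), and *ph-p* was higher in 3 of 3 replicates. A two-sided exact sign-flip permutation test gave p = 0.25, the smallest value that 3 replicates allow. With a window of 1000 bp, which takes in the *ph-d* summit of rank 120, the log2 ratio was 0.97 ± 0.37 (SD, n = 3, exact permutation p = 0.25). The 500 bp window leaves out that summit, which lay farther upstream.

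*Psc* and *Su(z)2* could be compared within 500 bp of a start site in replicate 3 alone, where the log2 ratio was 0.02. For the strongest region at each locus, *Psc* had signals of 343, 393 and 195 and *Su(z)2* had 112, 72.2 and 35.1 in replicates 1, 2 and 3. The *Su(z)2* region of replicate 3 was a different one, at -5485 bp, and also lay within 10 kb of *Psc*. The region used in replicates 1 and 2 had a signal of 20.7 in replicate 3. The log2 ratio of *Psc* over *Su(z)2* was then 2.18 ± 0.49 (SD, n = 3, exact permutation p = 0.25), higher at *Psc* in 3 of 3 replicates. *pho* and *phol* could be compared at the start site in replicate 1 alone, with a log2 ratio of *pho* over *phol* of 1.02. These were candidates outside the IDR set, with ranks of 4576 for *pho* and 18379 for *phol* in that replicate. With the 1000 bp window the ratio was 1.02 in replicate 1 and -0.81 in replicate 3, so the replicates differed in direction. By the strongest region at each locus *pho* was lower in 3 of 3 replicates, with a log2 ratio of -3.16 ± 1.04 (SD, n = 3, exact permutation p = 0.25). The *phol* value was then that of the region at start sites of CG3552 and CG3437. The *pho* value in replicate 3 was that of a weak region, with a signal of 7.9 and rank 20647.

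An IDR summit lay within 500 bp of a start site for 2 of the 10 genes, *ph-p* and *Sfmbt*, beside 18.7% of all protein-coding genes. An IDR region lay in the gene or within 10 kb for 9 of the 10, all but *pho*, beside 59.6% of all genes. A promoter region was among the 4060 highest of every replicate for 2 of the 10, the same *ph-p* and *Sfmbt*, beside 12.8% of all genes. By the nearest start site, a rule chosen after the data were seen, 5 of the 10 genes (*ph-p*, *ph-d*, *Psc*, *Su(z)2* and *Sfmbt*) had an IDR summit assigned, beside 20.4% of all genes. The number of genes with promoter binding was thus near the background.

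The 10 genes are longer than most, with a median length of 8360 bp against 2166 bp for all protein-coding genes, and a longer gene has more sequence in which a region can fall. Among the 7431 genes between 1599 and 14998 bp, the range of the 10, 64.8% had an IDR region in the gene or within 10 kb and 22.7% had a promoter peak. With genes that lack a region counted as 0, the median of the strongest IDR signal in or within 10 kb of the gene was 468 over the 10 and 137 over all genes. The median number of IDR regions was 2 for the 10 and 1 for all genes.

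By the strongest IDR region in or near the gene, the order was *ph-p*, *Pc*, *Psc*, *ph-d*, *phol*, *Sfmbt*, *Su(z)2*, *Sce* and *Scm*. For *Pc*, *phol*, *Sfmbt*, *Sce* and *Scm* this region lay within 500 bp of start sites of other genes only. For *Su(z)2* the nearest start site was also that of another gene. The order therefore describes neighbourhoods and not binding at the start sites of the 10 genes. A region as strong as that of *ph-p* lay in or near 94 genes, or 0.674% of the 13945, and for *Pc* and *Psc* the shares were 0.724% and 1.36%. For *ph-d* and *phol* they were 4.14% and 5.41%, and for *Sfmbt* 14.4%. *Su(z)2*, *Sce* and *Scm* were ordinary by this measure, with shares of 38.8%, 47.2% and 50.5%. Of the 8 neighbouring pairs in this order, *ph-p* and *Pc*, *ph-d* and *phol*, *Su(z)2* and *Sce*, and *Sce* and *Scm* did not differ beyond their spread, with the log2 difference positive in 2 of 3 replicates for each. The mean differences in these 4 pairs were 0.16 ± 0.34, 0.15 ± 0.30, 0.31 ± 0.60 and 0.17 ± 0.43 (SD, n = 3). The other pairs kept their order in 3 of 3 replicates, for example *Psc* over *ph-d* by 0.58 ± 0.13 (SD, n = 3, two-sided exact permutation p = 0.25, unadjusted over the 8 pairs).

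**Figure D3:**
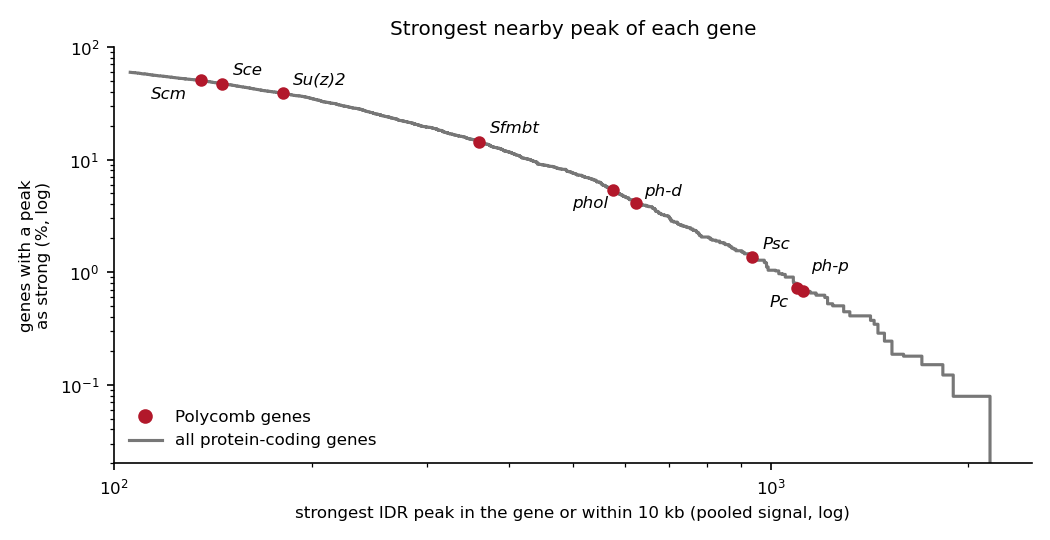
The x axis gives the pooled signal of the strongest IDR peak in or within 10 kb of a gene and the y axis the percentage of all protein-coding genes with a peak as strong, both on log scales. Red points are the Polycomb genes and the grey line is all protein-coding genes; *ph-p*, *Pc* and *Psc* lie at the strong end and *Scm* and *Sce* among common values, and *pho*, with no peak, is not drawn.

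In all, 25 IDR regions lay at the 10 genes, 2 of them at both *ph-p* and *ph-d*, and 4 of the 25 were among the 50 highest of the 4060. The 25 made 0.616% of the IDR set. Each replicate list also had 4 of its 50 highest regions there, as did the pooled list, which gives these regions the same signals as the IDR set. Of the 4, 2 lay at *ph-p*, so they are not separate loci. The start site nearest to the summit was that of one of the 10 genes for 10 regions and that of another gene for 15. Of the 4 highest regions, 3 were nearest to one of the 10 genes and the region beyond *Pc* was not. Summits of 4 regions lay within 500 bp of a start site of the 10 genes, and those of 11 lay within 500 bp of a start site of other genes only.

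The replicates agreed closely on the strong regions and less on the weak ones. All 25 come from the IDR set, which is chosen for reproducibility, so agreement between replicates is partly fixed in advance. Of the 25 regions, 15 matched a region among the 4060 highest in all 3 replicates, 9 in 1 or 2 replicates and 1, at *Sirt1*, in none. The *Sfmbt* regions of ranks 1265 and 3447, both among the 15, shared their matched region in replicates 2 and 3. By the highest overlapping region in place of the nearest summit, a rule chosen after the data were seen, the *Sirt1* region was among the 4060 highest in all 3. For the 8 regions with an IDR rank of 250 or better, the SD over replicates of log2 signal relative to the list median was at most 0.43. Over all 25 it ran between 0.03 and 1.41, the highest being the *ph-d* region of rank 1136. Summits of matched regions spread over a median of 50 bp and at most 193 bp between replicates.

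**Figure D4:**
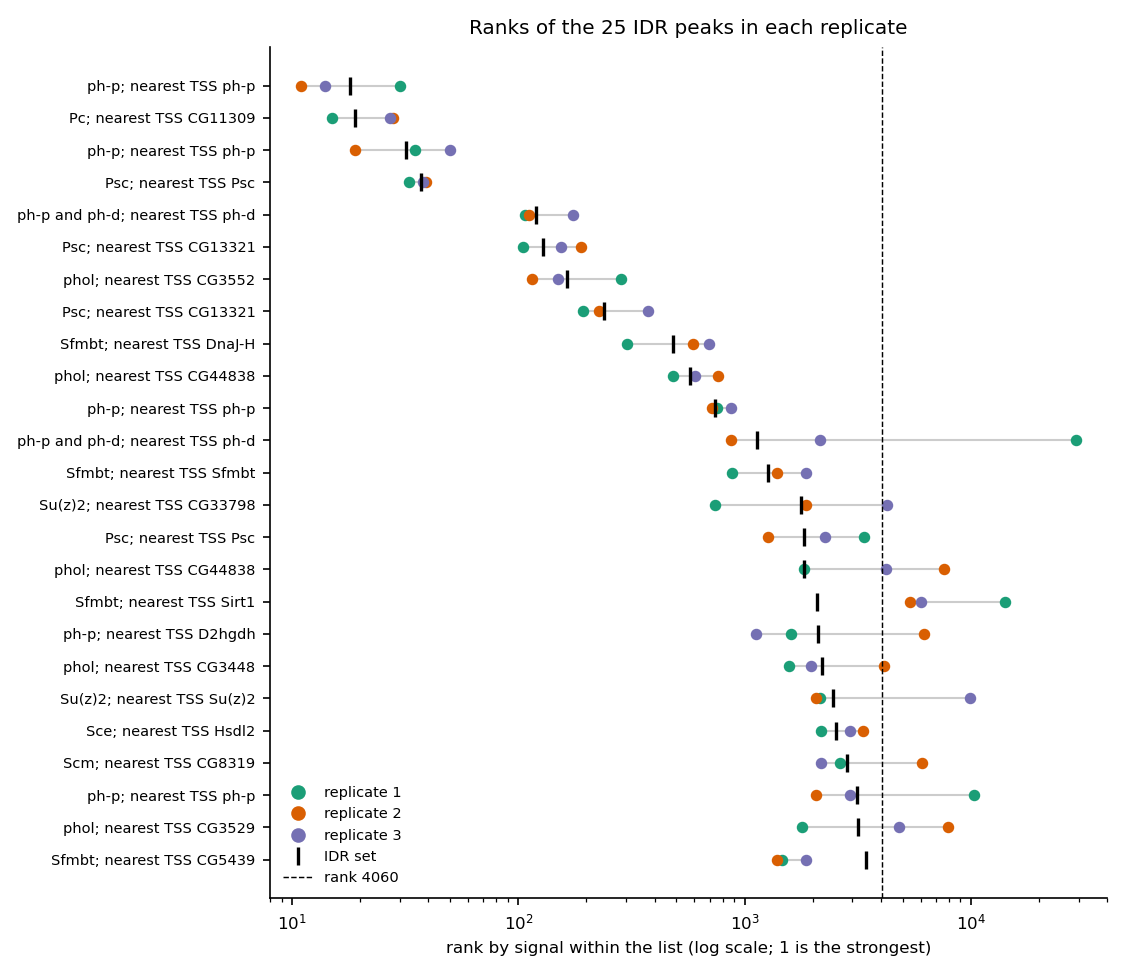
Each row is 1 of the 25 IDR regions, named by the Polycomb gene and the gene with the nearest start site, and the log x axis gives its rank by signal in each replicate (coloured points) and in the IDR set (black bar). The dashed line is rank 4060; points of the first 11 rows all lie left of it, while lower rows scatter across it.

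By position, the summits of 15 of the 25 regions, or 60%, lay within 500 bp of a protein-coding start site, of these genes or others, against 50.2% of all 4060 IDR summits. Outside such windows, 3 regions (12%) lay in introns against 34.7% of all IDR summits, and 7 (28%) lay between protein-coding genes against 13.5%. The intergenic summits were those upstream of *ph-d*, around *Psc* and around *Su(z)2*, so they come from 2 loci and are not independent of each other.

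The letters at the summits were set against all IDR windows of the same 201 bp length, on both strands. AACAAT was present in 13 of 25 windows, or 52%, against 25.5% of all 4060. The related word ACAAAG, bound by the HMG box of TCF proteins, was present in 6 (24%) against 13.4%. GCCAT, the core bound by Pho, was present in 7 (28%) against 25.2%, and GAGAG, bound by the GAGA factor, in 5 (20%) against 20.9%. CACCTG was present in 1 (4%) against 4.68%, and TATCGATA in 1 (4%), the *Sfmbt* promoter, against 3.45%; there it overlaps an AACAAT. The 201 bp at the strongest *ph-p* summit held none of the 6 words. Median GC content was 31.8% in the 25 windows and 33.8% in all, and the part of base composition in these shares was not tested. Windows of 1 locus lie close together and are not independent, and a match describes letters only.

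Of 26 other Polycomb genes, 8 carried a promoter peak by the 500 bp rule, or 30.8%, beside the 18.7% of all genes given above. Of the 8 genes of PRC2, the complex that methylates histone H3, 3 had one: *E(z)*, the methyltransferase, with a pooled signal of 354, *Su(z)12*, a core subunit, with 230.1, and *jing*, an accessory gene, with 112. *E(z)* ranked 459, 521 and 834 in replicates 1, 2 and 3, while *jing* ranked 5882, 3529 and 5669. Of the 9 genes for factors that bind Polycomb response elements, 4 had one: *Trl*, which encodes the GAGA factor, with a signal of 285, *Adf1* with 173, *lolal* with 152 and *cg* with 121. Of 4 other Polycomb or partner genes *mxc* had one, with a signal of 143. The *mxc* region ranked 1970 and 2234 in replicates 1 and 2 but 27593 in replicate 3, near the end of that list. None was found at the 2 PR-DUB genes, for the deubiquitinase complex, or the 3 variant PRC1 genes. An IDR region lay in the gene or within 10 kb for 23 of the 26, or 88.5%, beside 59.6% of all genes. The lengths of these 26 genes were not set against those of all genes. A promoter region was among the 4060 highest of every replicate for 4 of the 26, or 15.4%, beside 12.8% of all genes, a share near the background. By the strongest IDR region in the gene or within 10 kb, *Trl* with a signal of 1457 and FBgn0263979, the gene of the histone-binding PRC2 subunit, with 1437 stood above the 1120.4 of *ph-p*. FBgn0263979, which had no promoter peak, was named after its value was seen.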

How the data were processed

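CG12104-GFP ChIP-seq was read in 3 biological replicates of 1 group, separate biosamples of the same line; per the labels, chromatin was sonicated to 200 to 800 bp. Per the deposited text lists, the authors called each replicate list on 1 replicate against 1 control alignment and the pooled list on all 3 replicates, and derived the IDR set from these. Neither aligner nor peak caller is named (not given in the sources used here). The deposited signal of a region is on the scale of its own list, so it was used as rank or as a ratio within a list. The −log10 of a q value, also deposited, was at most 3.54 in the pooled list, and the highest q was 0.960 in the pooled list and 0.0152 in the IDR set. The lists give no read counts, so depth is unknown. Lists in build dm3 were not used here.

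Coordinates are 1-based in dm6. Genes came from Ensembl release 115 and sequence from the NCBI Release 6 assembly. A region was assigned to every gene that it overlapped, with 10 kb on either side, by at least 1 bp. Each IDR region took the overlapping replicate region with the nearest summit. Ratios were tested with a two-sided exact sign-flip permutation test over replicates. Windows were aligned locally with scores of 2 for a match, -3 for a mismatch, -5 for opening and -2 for extending a gap. Python 3.11.15, pandas 2.3.3, numpy 2.4.6, scipy 1.17.1, Biopython 1.88 and matplotlib 3.10.9 were used, and the assignment was tested on simulated regions.

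The genes and lists were chosen with earlier results of these data known, so counts are descriptions beside the share of all genes. Named genes are the 10 genes, other protein-coding genes with a TSS within 500 bp of an IDR summit at one of them, and other Polycomb genes with a promoter peak; CG13321 was named after its position was seen. Alternatives varied the windows, flanks, lists, assignment and replicates.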

Additional observations from a re-analysis of the deposited data

How the results depend on the processing

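Of the 10 genes, 2 had a promoter peak. This became 1 with a 200 bp window, beside 12.2% of all genes, and 8 with the pooled candidate list, beside 46.2%. The gene kept by the 200 bp window was *Sfmbt*, since the *ph-p* summits lay at -439 and +401 bp. The count was 2 to 3 under the other alternatives run, beside 11.1% to 21.3% of all genes. Without each replicate it was 2, beside 14.0% to 14.6%. The 9 genes with an IDR region in or within 10 kb became 5 by the nearest start site, an alternative chosen after the data were seen, beside 20.4% of all genes. They became 6 with a 2 kb flank (33.5% of all genes), 8 with 5 kb (46.1%), 9 with 20 kb (74.3%) and 7 with IDR ranks up to 2030 only (41.6%), and stayed at 9 with either stricter overlap rule (59.0% each). Of 26 other Polycomb genes, the 8 with a promoter peak became 4 in ranks up to 2030 of the IDR set, beside 11.1% of all genes. When the 4060 highest regions of all replicates but 1 were used, 5 to 6 genes had one. The count was 5 without replicate 1 (14.0% of all genes), 6 without replicate 2 (14.2%) and 5 without replicate 3 (14.6%). The log2 ratio of *ph-p* over *ph-d* of 3.67 was 3.52 to 3.82 without each replicate and 0.97 with the 1000 bp window or the strongest region at the locus. The ratio of *pho* over *phol*, 1.02 in the only replicate with both promoter regions, was 0.10 ± 1.30 (SD, n = 2) with the 1000 bp window and reversed to -3.16 with the strongest region at the locus. The ratio of *Psc* over *Su(z)2*, 0.02 in 1 replicate, became 0.25 with the 1000 bp window (n = 2) and 2.18 by the strongest region. The strongest-region rule took regions outside both windows, at -4215 bp for *Psc* and at -1533 bp for *phol*. The latter lay at start sites of CG3552 and CG3437. Any further cause was not tested. The 500 bp ratios of these last pairs rest on 1 replicate each, so they have no leave-one-out values. The 15 regions in the top set of every replicate became 17 by the highest overlapping region, also chosen after the data were seen, and 17 to 18 without each replicate. No paired analysis was possible because there is no other group of samples to pair with; the ratios between genes were taken within a replicate. Depth is unknown, and 3 replicates cannot give an exact p below 0.25.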
